A study of Homo sapiens with 12 samples.

Results

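Circular RNAs (circRNAs) that were listed in exosomes of AC16 cells and in none of the cells' own libraries are described here. A circRNA belonged to this set when its back-splice junction had reads in at least 1 of the 6 exosome libraries and none in any of the 6 cell libraries. The rule was met by 521 of the 5700 circRNAs of the series, which is 55.5% of the 939 circRNAs listed in exosomes. The members were chosen by their junction reads in the 12 libraries, so their presence in exosomes and absence from cells is a description and was not tested. The comparison set is the 418 circRNAs listed in both compartments, called shared circRNAs below. The other 4761 circRNAs were listed in cells only.

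The AC16 line is established from human ventricular cardiomyocytes fused with fibroblasts, and exosomes are small vesicles that cells shed. The 12 libraries form 4 groups of 3, whole AC16 cells labelled Con, whole AC16 cells labelled Ang, and AC16 exosomes under the same 2 labels. Neither Con nor Ang is spelled out. The series asked which RNAs exosomes of hypertrophic cardiomyocytes carry. Nothing in the labels ties the 3 libraries of a group to separate cultures, so each p-value reflects library-to-library spread alone, and that spread may be technical. Cell RNA was extracted and sequenced with other kits (miRNeasy Micro, VAHTS Universal V6) than exosome RNA (exoRNeasy Maxi, SMARTer Stranded Total RNA), so compartment and kit cannot be told apart.

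A circRNA forms when the spliceosome joins the end of an exon to the start of the same or an earlier exon, which closes the RNA into a ring. The ring has no free end for exonucleases to attack, and circRNAs are therefore known as long-lived RNAs in cells and in body fluids. Only the read that crosses the join tells a circle from the linear mRNA of its host gene. A circle made by ordinary splicing has both ends of the join on annotated exon edges.

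The joins of the recurrent and the highest members that lie wholly in coding sequence are shown first, because they are the sequences by which each circle was counted. Each is written 5′ to 3′ as DNA letters from GENCODE release 29 transcripts on GRCh38, with 30 bases on each side of the join. The capitals mark the last 5 bases of the circle's final exon and the first 5 bases of its first exon, which touch only in the circle.
PHF14, exons 3 to 4: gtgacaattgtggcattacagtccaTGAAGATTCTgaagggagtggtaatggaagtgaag
SKA3, exon 4: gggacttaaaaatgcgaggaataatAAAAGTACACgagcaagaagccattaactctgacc
STRN3, exons 2 to 8: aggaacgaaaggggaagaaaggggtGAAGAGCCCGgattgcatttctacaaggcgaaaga
ANP32E, exons 4 to 6: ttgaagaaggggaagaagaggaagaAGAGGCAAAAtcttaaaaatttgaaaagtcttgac
ENAH, exons 4 to 5: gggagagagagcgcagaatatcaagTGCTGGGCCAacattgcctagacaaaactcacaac

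Members were almost entirely private to 1 library. Of the 521, 515 (98.8%) had reads in 1 exosome library, 5 in 2 libraries and 1 in 3, and none was listed in 4 or more. Among the shared circRNAs 319 (76.3%) were listed in 1 exosome library, 61 in 2, 18 in 3, 8 in 4, 6 in 5 and 6 in all 6. Of the 15 pairs of exosome libraries, 7 had a member in common, with at most 2 members per pair, while every pair had between 13 and 28 shared circRNAs in common. By label, 273 members were listed only in Con exosomes, 245 only in Ang exosomes and 3 in both. A circle listed in 1 library can fall under only 1 label, so this split follows almost wholly from the 515 single-library members. The same split was not counted for the shared circRNAs, of which 76.3% were also listed in 1 exosome library. These counts follow in part from the rule, since a circle seen often in exosomes had more chances to be seen in cells too, and they were not tested.

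**Figure D1:**
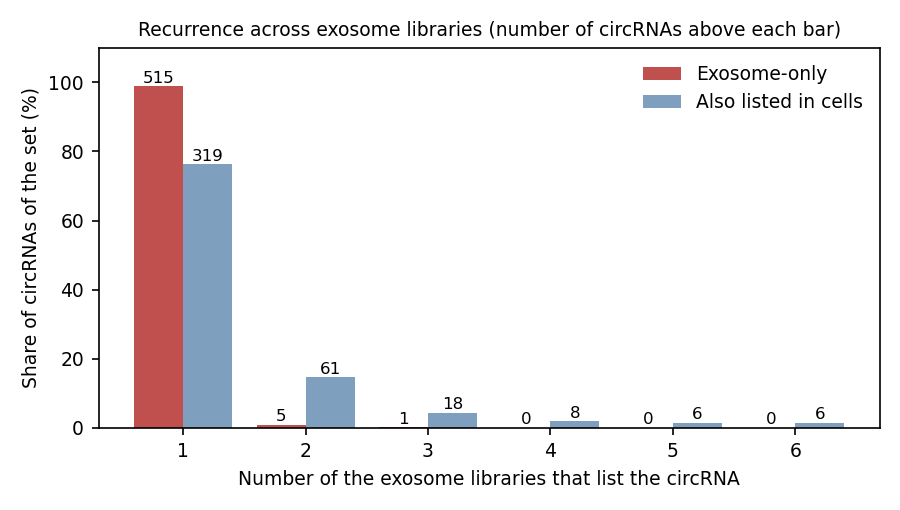
Percent of circRNAs by the number of exosome libraries that list them, for the 521 exosome-only and the 418 shared circRNAs. The exosome-only bar at 1 library reaches 98.8% and the shared bar 76.3%, and only shared circRNAs appear at 4 to 6 libraries.

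The member found in the most libraries was the PHF14 circle (chr7:10982372-10990847, + strand). PHF14 encodes a nuclear protein with PHD fingers, which bind histone tails. Its circle joins exon 4 back to exon 3 of 18 and holds 933 bases, all coding. It had 0, 9 and 9 junction reads in Con exosome replicates 1 to 3 and 0, 0 and 8 in Ang replicates 1 to 3, so that 3 libraries held 8 or 9 reads and 3 held none, and the labels overlapped. Its total of 26 was the highest of any member.

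Among the 5 members listed in 2 libraries, NAP1L4 and ANP32E were seen under both labels and the others under 1. The NAP1L4 circle (chr11:2951259-2979237, - strand), from a histone chaperone gene, had 16 reads in Con replicate 2 and 5 in Ang replicate 3. It covers exons 2 to 14 of 16 in 1139 bases and includes the start codon. The SKA3 circle (chr13:21167988-21168399, - strand) had 6 reads in Con replicate 1 and 3 in Con replicate 3. SKA3 encodes a kinetochore protein that holds chromosomes to spindle microtubules, and its circle is exon 4 alone, 412 coding bases. The ANP32E circle (chr1:150223186-150229237, - strand) had 3 reads in Con replicate 3 and 4 in Ang replicate 1. ANP32E is a chaperone that removes the histone variant H2A.Z, and its circle covers exons 4 to 6 of 7 in 409 bases.

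The STRN3 and TAOK1 circles, like that of SKA3, were seen under 1 label. The STRN3 circle (chr14:30929201-30956242, - strand) had 3 reads in Con replicate 1 and 4 in Con replicate 2, and covers exons 2 to 8 of 18 in 817 bases. STRN3 encodes a striatin, a scaffold of the STRIPAK phosphatase complex. The TAOK1 circle (chr17:29451455-29451680, + strand) had 3 reads each in Ang replicates 1 and 2, and is exon 2 of 20, 226 bases that include the start codon. TAOK1 encodes a kinase upstream of p38 signalling. With 3 libraries per label and reads in 2 of them, neither circle can be called different between Con and Ang. SKA3, STRN3 and TAOK1 meet the naming rule for circles seen in 2 or more libraries of only 1 label, whereas PHF14, NAP1L4 and ANP32E were named after their values were seen.

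Each member had few reads. The median total over the exosome libraries was 4, with quartiles of 3 and 6, and no junction in any library was listed with fewer than 2 reads, in exosomes or in cells. A single junction read may therefore stand as 0 in the files. At the lower edge of the rule, 79 members (15.2%) had a total of exactly 2 reads. Just outside it, 37 shared circRNAs were kept out by exactly 2 reads in the cells. Of these the SNX27 circle (chr1:151638888-151668635) had 15 reads in Ang exosome replicate 2, the MAP7D1 circle (chr1:36170971-36173478) 13 in Con replicate 3, the PHIP circle (chr6:79042843-79060818) 12 in Con replicate 2 and the PAK2 circle (chr3:196806579-196807914) 10 in Con replicate 2. Each of these 4 neighbours missed the rule through its listing in 1 cell library.

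Some members had high counts in their 1 library. Among the 515 single-library members, 39 (7.57%) had 10 or more reads there. NAP1L4, with 16 reads in Con replicate 2, also had 5 in another library. Counts of 10 or more were seen in 35 of the 319 shared circRNAs listed in 1 exosome library. The highest count of a member in any library was that of the ENAH circle (chr1:225519198-225530638, - strand), with 22 reads in Con replicate 2. ENAH encodes Mena, which promotes actin filament growth, and no circle of ENAH was listed in cells. Gene reads of ENAH in the exosomes, which may include reads from circles, were 447, 85 and 311 in Con replicates 1 to 3. The library with the circle thus had the fewest host gene reads of the Con group.

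The next members by reads in 1 library, named after their values were seen, were a KCNMA1 circle with 20 reads in Con replicate 3 and a TCF25 circle with 17 in Ang replicate 2. KCNMA1 encodes the pore of the large-conductance calcium-activated potassium channel, and its circle (chr10:77536634-77587871) has 1 end on an exon edge. The TCF25 circle (chr16:89895990-89900794) runs from exon 9 to exon 12. A GSPT1 circle of exons 2 to 6 (chr16:11891062-11898035), from the gene of a translation termination factor, had 16 reads in Con replicate 2. A MYCBP2 circle of exons 10 to 27, from a ubiquitin ligase gene, had 14 in Ang replicate 2. These high counts were spread over both labels and over different libraries.

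**Figure D2:**
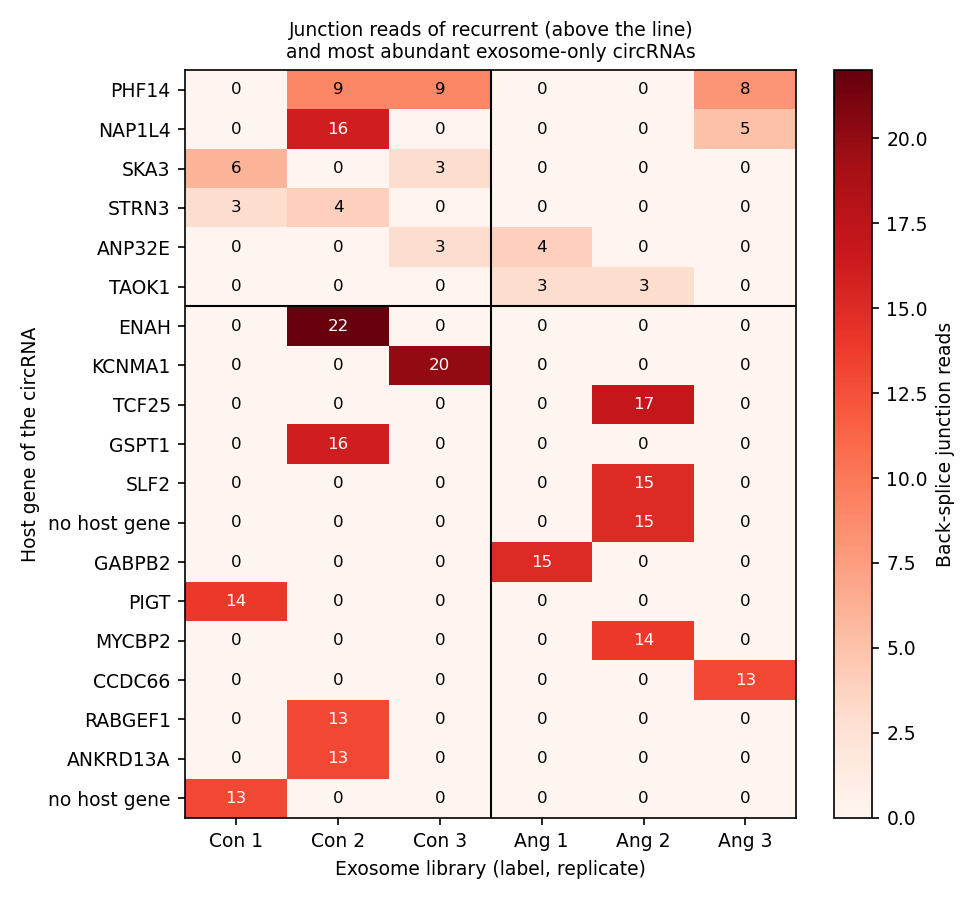
Junction reads (number and colour) in each of the 6 exosome libraries for the 6 recurrent members, above the line, and the members with 13 or more reads in a single library; those with no host gene lie antisense of HEG1 (15 reads) and GLI2 (13 reads). The PHF14 circle fills 3 libraries, and below the line each circle fills 1 library, led by ENAH with 22 reads in Con replicate 2.

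By library, exosome-only circles numbered 82, 107 and 90 in Con replicates 1 to 3 and 87, 83 and 79 in Ang replicates 1 to 3. They carried 383, 585 and 475 junction reads in the Con libraries and 444, 442 and 376 in the Ang libraries, 2705 of 6768 exosome junction reads in all (40.0%). Gene reads were 745311, 740078 and 717263 in the Con and 554998, 587783 and 535442 in the Ang exosome libraries. The Ang libraries were thus all shallower than the Con libraries. Cell libraries were deeper, with 9202471 to 11212674 gene reads and 1264 to 1485 circRNAs each.

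Set against depth, the exosome-only circles did not differ detectably between Ang and Con. Junction reads per 1000000 gene reads were 514, 790 and 662 in Con and 800, 752 and 702 in Ang exosomes, so the groups overlapped. Means stood at 751 ± 48.9 for Ang and 656 ± 138 for Con (SD, n = 3 each), a difference of 95.9 with p = 0.3 in an exact two-sided permutation test. The number of circles per library was 83 ± 4 for Ang and 93 ± 12.8 for Con (SD, n = 3 each; exact permutation p = 0.3). Divided by depth the order turned, with 2.18 more circles per 100000 gene reads in Ang (exact permutation p = 0.2). The share of exosome junction reads on these circles was 42.2 ± 1.93% for Ang and 38.1 ± 6.03% for Con (SD, n = 3 each; exact permutation p = 0.4). Con replicate 1 was the lowest, at 31.2%, and the other 5 libraries lay between 40.2% and 44.0%. A design of 3 against 3 cannot reach a p below 0.1. All 3 differences moved by over 1.5 times when Con replicate 1 or 2 was left out. Without Con replicate 1 they were 25.1 reads per 1000000 gene reads, -15.5 circles and 0.689 points of share. Without Con replicate 2 they were 163 reads, -3 circles and 6.26 points.

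**Figure D3:**
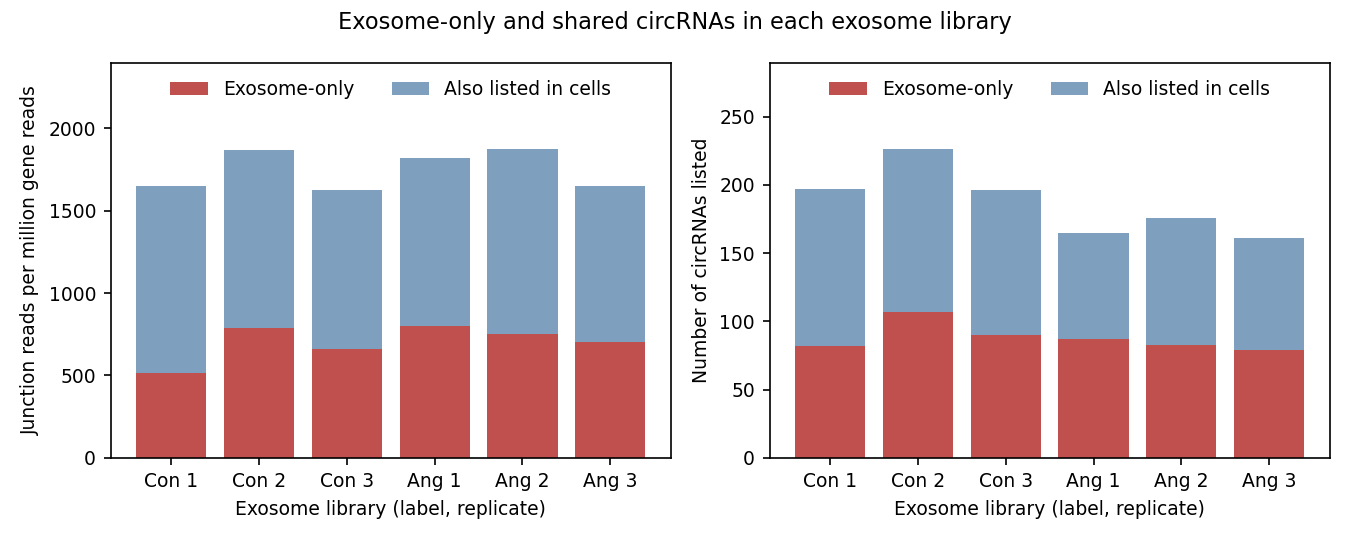
Stacked bars give junction reads per 1000000 gene reads (left) and the number of circRNAs listed (right) in each of the 6 exosome libraries, split into exosome-only circRNAs (lower) and those also listed in cells (upper). The exosome-only bars of Ang and Con libraries overlap in height, with Con replicate 1 lowest in reads (514) and Con replicate 2 highest in number (107).

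Single circles could hardly be tested. Of all circRNAs listed in exosomes 36 had enough reads for the edgeR quasi-likelihood test of Ang against Con, and 0 of the 36 passed (0% called; 3 had an unadjusted p below 0.05). The PHF14 circle was the only member among them, with a log2 difference of -0.60 (SE 2.12, edgeR adjusted p = 0.992). DESeq2 called 2 of the 36, of which 0 were members. With no filter on reads edgeR tested 939 circRNAs, 521 of them members, and called 0, with 6 at an unadjusted p below 0.05 and 0 members among these. At these read numbers a difference in any single exosome-only circle was not detectable.

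The ends of the members fell on annotated exon edges less often than those of shared circRNAs in every library. Both ends matched in 321 members (61.6%), 1 end in 82 (15.7%) and neither in 118 (22.6%). The shared circRNAs had 385 (92.1%), 25 (5.98%) and 8 (1.91%). The cell-only circRNAs were closer to the members, with 2656 (55.8%), 567 (11.9%) and 1538 (32.3%). In Con replicates 1 to 3 the share of members with both ends on edges was 65.9%, 67.3% and 56.7%, against 94.8%, 92.4% and 94.3% of shared circRNAs. In Ang replicates 1 to 3 it was 59.8%, 67.5% and 54.4%, against 91.0%, 92.5% and 95.1%.

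The 6 members' shares therefore all lay below the 6 shares of shared circRNAs, with means of 61.9 ± 5.72% and 93.4 ± 1.62% (SD, n = 6 libraries). The difference of -31.4 percentage points gave p = 0.031 in an exact sign-flip permutation test within libraries, the smallest p that 6 pairs allow. Adjusted over the 3 such comparisons by the Benjamini-Hochberg method it was 0.09375, which misses 0.05. By the rule, shared circRNAs were also listed in cells and members were not. The difference may follow in part from that, and the test cannot separate it from a trait of exosome circles. Restricted to circles listed in exactly 1 exosome library the difference was -30.4 points. The shared circRNAs of that comparison were listed in cells as well, whereas the members were listed nowhere else. Of cell-only circRNAs listed in 1 cell library 49.7% had both ends on edges, against 61.2% of the single-library members. Among circles listed in 2 or more libraries it was 4.17 points the other way (exact permutation p = 0.0625), since all 6 recurrent members have both ends on exon edges. These same 6 circles were counted again in each library that lists them, and the members' share was 100% in every library (SD 0). This p therefore measures no spread among members, and no conclusion is drawn from it.

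**Figure D4:**
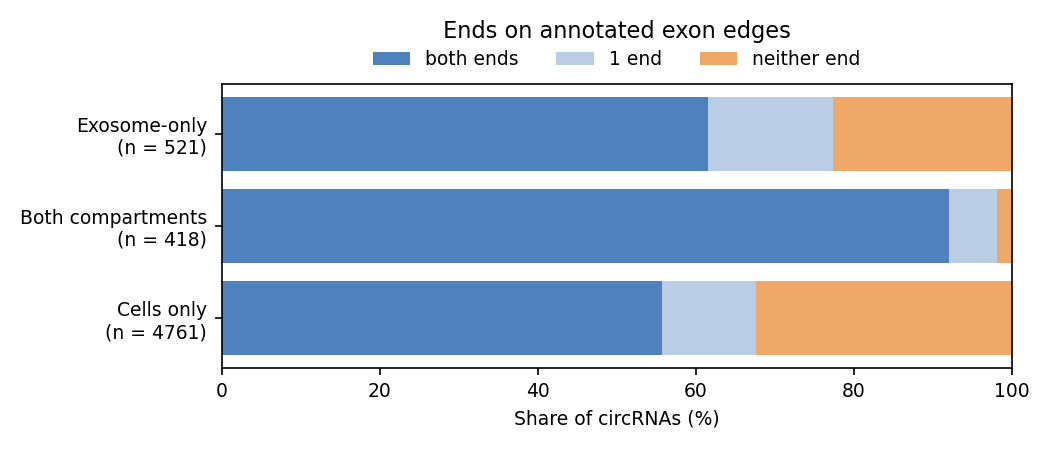
Percent of circRNAs with both ends, 1 end or neither end on an annotated exon edge, for exosome-only, shared and cell-only circRNAs. Both ends match in 61.6%, 92.1% and 55.8% of the 3 sets.

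Members off the exon edges were short and often antisense. The 118 members with neither end on an edge had a median span of 766 bases, against 8777 for those with both ends on edges. Of the 118, 62 (52.5%) lay antisense of a gene, 18 had both ends in introns, 15 lay inside 1 exon, 11 had both ends in exons, 5 had 1 end in an exon and 1 in an intron, and 7 were placed otherwise. Antisense circles made up 11.9% of the members, 0.478% of the shared and 9.54% of the cell-only circRNAs. Circles with both ends in introns made up 3.45% of the members and 14.5% of the cell-only circRNAs. The antisense members with the most reads were 15 reads in Ang replicate 2 opposite HEG1 (chr3:125013023-125013426), an endothelial and cardiac membrane protein gene, and 13 reads in Con replicate 1 opposite GLI2 (chr2:120955259-120955555), a hedgehog signalling factor gene. How the counting used strand is not given in the sources used here, so the strand of these junctions is that of the files.

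Flanking bases could be read within the exon for 15 members, 14 of those inside 1 exon just counted and 1 with 1 end on an edge. All 15 had AG just before and GT just after the listed span, the letters that flank an exon at ordinary splice sites. In 7 of the 15 a direct repeat of 5 or more bases stood at the join. The shared circRNAs inside 1 exon had AG and GT in 5 of 5 and a repeat in 0, and the cell-only ones in 169 of 170 with a repeat in 66. The circRNA caller is not given and may itself have required these letters. Their presence therefore describes the listed joins and was no test of splicing. An AHNAK member (chr11:62520071-62520256, - strand) with 2 reads in Ang replicate 2 shows the arrangement. AHNAK encodes a giant scaffold protein made of repeated units. Its 186 bases are printed 5′ to 3′ with 15 flanking bases on each side, and the capitals mark the AG before and the GT after the span.
AHNAK, inside 1 exon: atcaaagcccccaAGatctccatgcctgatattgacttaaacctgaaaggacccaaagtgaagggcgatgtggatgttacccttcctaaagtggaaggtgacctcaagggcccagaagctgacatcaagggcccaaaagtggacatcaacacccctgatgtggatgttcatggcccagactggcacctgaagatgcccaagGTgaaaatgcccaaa
The repeat here is 6 bases, cccaag. A second AHNAK member uses the same GT and spans 6228 bases (chr11:62520071-62526298), with 6 reads in the same library.

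The width of members did not differ detectably from that of shared circRNAs. Spans ran from 142 bases, an ANP32B circle with 5 reads in Con replicate 3 (chr9:98015376-98015517), to 158158 bases. The widest (chr17:16186554-16344711, - strand) had 5 reads in Con replicate 1 and ends in CENPV and NCOR1. The median span per library was 6831 ± 1851 bases for members and 7724 ± 1228 for shared circRNAs (SD, n = 6), lower for members in 4 of 6 libraries, with p = 0.406 in the exact sign-flip permutation test (adjusted 0.531). Kept to circles with both ends on exon edges, the members were wider by 1102 bases (exact permutation p = 0.469), a comparison added after the data were seen. The median exon number was 3.83 ± 0.753 for members and 3.33 ± 0.516 for shared circRNAs (SD, n = 6; exact permutation p = 0.531, adjusted 0.531).

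**Figure D5:**
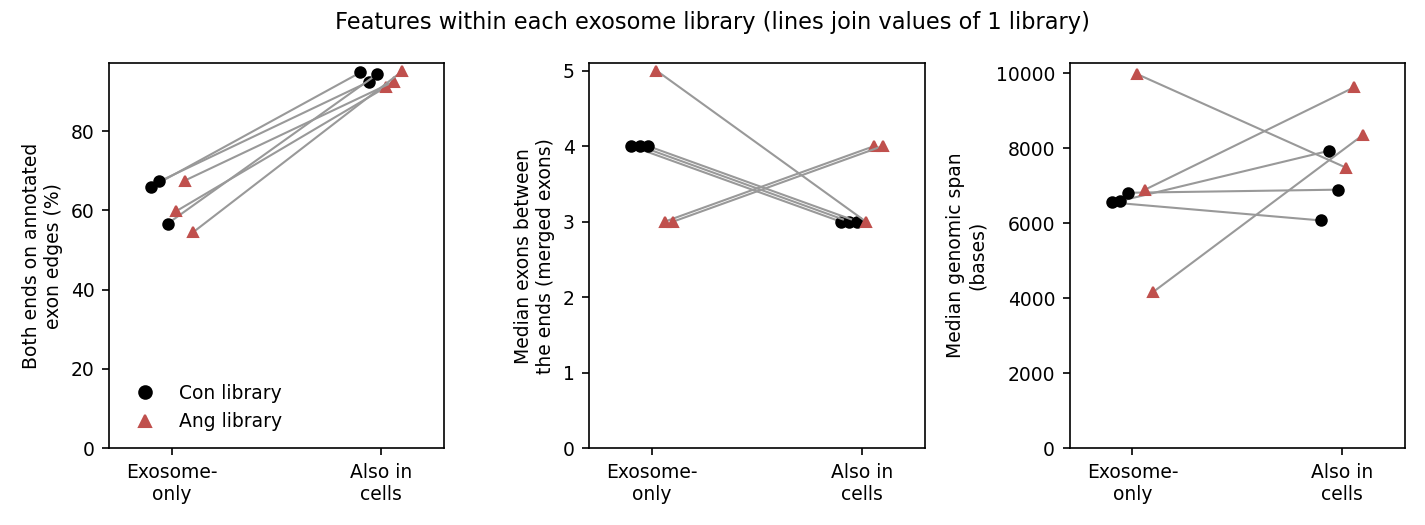
Share with both ends on exon edges (percent), median exon number and median span (bases) of exosome-only circRNAs and of those also listed in cells, with 1 line per exosome library and points set slightly apart sideways. All 6 lines rise for the exon-edge share, and lines run in both directions for exon number and span.

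Of the 321 members with both ends on exon edges, 304 could be laid on 1 annotated transcript. They held a median of 4 exons (quartiles 3 and 6) and 526 exonic bases. Single-exon circles were 13 (4.28%) of them and 28 (7.47%) of the 375 shared circRNAs laid out the same way. Circles starting at exon 2, which receives the splice from the first exon in the linear mRNA, were 80 (26.3%) and 140 (37.3%). Among cell-only circRNAs laid out the same way, 5.46% were single-exon and 28.2% started at exon 2, nearer to the members. No member began at exon 1 or ended at the last exon, both of which lack a splice site on one side. Coding sequence alone made up 249 members (81.9%), the start codon was included in 41 (13.5%) and the stop codon in 4. Guanine and cytosine made up a median of 44.2% of the bases of members and 44.9% of those of shared circRNAs.

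Some members reused splice sites that cells also circularized. At least 1 end of 117 members (22.5%) was also the same-side end of a circle listed in cells, and in 12 members both ends were, though cells were never listed with the pair. Only 4 members had a cell circle within 10 bases at both ends. The one whose partner circles had the most reads in cells was BARD1, which encodes the partner of BRCA1 in DNA repair. Cells held a circle of exons 4 to 6 with 64 reads in 6 libraries and one of exons 2 to 7 with 26 reads in 5 libraries. The member joins exon 7 to exon 4 (chr2:214752447-214781509, - strand) and had 2 reads in Ang replicate 1. The lines show that it has the left side of the second cell circle and the right side of the first.
BARD1 exosome-only, exons 4 to 7: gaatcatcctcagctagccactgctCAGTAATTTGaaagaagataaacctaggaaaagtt
BARD1 cells, exons 4 to 6: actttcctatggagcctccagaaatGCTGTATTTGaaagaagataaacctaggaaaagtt
BARD1 cells, exons 2 to 7: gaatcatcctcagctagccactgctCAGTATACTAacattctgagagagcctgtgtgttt

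SKA3 exon 4 was another of the 12: cells had exons 2 to 4 with 4 reads and exons 4 to 5 with 2 reads. A RICTOR circle of exons 3 to 7, from the gene of a subunit of the mTORC2 kinase complex, had 5 reads in Ang replicate 1. Its cell partners were exons 4 to 7 with 10 reads and exons 3 to 5 with 8. SMARCC1, a subunit gene of the SWI/SNF chromatin remodeller, gave 2 of the 12, a circle of exons 22 to 24 with 7 reads in Con replicate 3 and one of exons 16 to 26 with 4 reads in Con replicate 2. These examples were chosen after their values were seen.

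The 442 members with a host gene came from 405 hosts, and 434 of them from protein-coding hosts. The other 79 had no host on their strand. Cells listed some other circle of the host for 255 of the 442 (57.7%) and none for 187. Of the hosts, 375 gave 1 member, 23 gave 2 and 7 gave 3. The 7 were APP, CDK5RAP2, CFDP1, DDX46, LARP4B, TAOK1 and VEGFC.

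APP, the amyloid precursor protein gene, gave circles of exons 4 to 5 (4 reads, Ang replicate 3), 6 to 11 (3 reads, Con replicate 2) and 7 to 13 (3 reads, Con replicate 1). No circle of APP was listed in cells, although APP had 9907 to 16065 gene reads in each cell library. The 3 TAOK1 members all start at exon 2 and end at exons 2, 6 and 17, in Ang, Con replicate 3 and Con replicate 2 libraries. DDX46, a spliceosomal helicase gene, gave long circles of exons 6 to 20 (7 reads, Con replicate 3), 5 to 18 (4 reads, Ang replicate 1) and 2 to 15 (2 reads, Ang replicate 1). The VEGFC members, from the gene of a lymphatic growth factor, had 5, 5 and 3 reads in Ang replicates 1, 2 and 3 and none in Con. Each VEGFC join has 1 end on an exon edge and each is a different join. CFDP1 had 8 reads in Ang replicate 1 and 9 and 2 in Ang replicate 2, and LARP4B 6, 4 and 4 in 3 libraries of both labels. The CDK5RAP2 members, from a centrosome gene, had 2 or 3 reads each in Con exosomes. Of the circles of these 7 hosts, the TAOK1 exon 2 circle was the one listed in 2 libraries. DDX46, CFDP1 and CDK5RAP2 each had 2 different circles in 1 library.

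Of 34 hosts known for well-studied circRNAs, 4 had a member and 22 had a shared circRNA. The members were STRN3 (above), an ITCH circle with 5 reads in Ang replicate 1 and 1 end on an exon edge, an MBNL1 circle of exon 2 with 7 reads in Ang replicate 3, and an FNDC3B circle of exons 8 to 9 with 4 reads in Con replicate 3. MBNL1 encodes a splicing factor, and its circle (chr3:152299405-152300367) is 963 bases and includes the start codon. ITCH encodes a ubiquitin ligase. Over all hosts, 405 had a member and 342 had a shared circRNA. The rule leaves out every circle listed in cells, so the counts for the 34 hosts may follow in part from it and were not tested.

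No host of a member passed the edgeR test of its gene reads between the labels. Of 8327 genes tested in exosomes with edgeR, 1 passed an adjusted p of 0.05 between Ang and Con (0.012%), and 0 of the 349 hosts of members did. An unadjusted edgeR p below 0.05 was reached by 316 of the 8327 genes and by 16 of the 349 hosts. The median log2 difference was 0.003 over hosts and -0.002 over all genes. The host with the smallest p was STX4, a membrane fusion syntaxin gene, for which Con exosomes had 13, 12 and 9 reads and Ang exosomes 39, 45 and 38, groups that do not overlap. Its log2 difference was 2.22 (SE 0.412, edgeR adjusted p = 0.279), and DESeq2 gave an adjusted p of 0.00525 where 0.192% of all genes were called. STX4's member was seen in Con replicate 3 with 3 reads. ANKRD13A (log2 1.54, SE 0.367) and CAST, the calpain inhibitor gene (log2 -0.94, SE 0.225), both had an edgeR adjusted p of 0.731. PTMS and ANP32B completed the 5 hosts with the smallest p, at log2 0.30 and 0.17 and an edgeR adjusted p of 0.999.

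SMARCC1 had 465, 447 and 485 gene reads in the Con exosomes, and Ang exosomes had 22, 48 and 401, so Ang replicate 3 lay near the Con libraries. Over all 6 libraries the log2 difference was -1.13 (SE 1.16, edgeR adjusted p = 0.999). Without Ang replicate 3 the gene passed (log2 -3.38, edgeR adjusted p = 0.00909), 1 of 363 hosts, in a fit that called 3 of 9126 genes (0.0329%). Both SMARCC1 members were in Con libraries. Of the 29 genes listed as circRNA formation and decay factors, 24 could be tested and 0 passed. An unadjusted edgeR p below 0.05 was reached by 2 of the 24 factors, where 316 of all 8327 genes reached it. The 2 factors were ADAR, an RNA-editing enzyme that counters circle formation (log2 -0.60, SE 0.239), and the helicase gene DDX39A (log2 -0.73, SE 0.326). The median over the list was -0.16 on the log2 scale, with 9 of the 24 positive.

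Between exosomes and cells, hosts of members went both ways. Since the rule contrasts the same compartments, these values are a description. Of 386 hosts, 178 (46.1%) passed the edgeR threshold, 90 higher and 88 lower in exosomes, where 37.1% of all 11811 genes did. The median log2 difference was -0.09 over hosts and -0.145 over all genes. ANP32B, a histone chaperone gene with 2 members, had a CPM (gene reads scaled to 1000000 reads per library) of 8538 in exosomes and 554 in cells (log2 4.15, SE 0.0996). PTMS stood at log2 3.04, and the mRNA-binding protein gene IGF2BP1 at -4.90 (SE 0.700). These 3 were named after their values were seen. The values are scaled to the reads of each library, so they give relative shares. They show neither the number of vesicles nor the amount of RNA per vesicle.

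Marker genes set the context of these libraries. All 10 fibroblast and mesenchymal markers were listed in both compartments, at a summed 7310 to 8629 CPM in exosomes and 8395 to 10105 in cells. Of 12 cardiomyocyte markers 9 were listed in cells, at a summed 32.6 to 39.4 CPM, with MYL7, MYL4 and TBX5 at 0, and only GATA4 was listed in exosomes, at 8.37 to 52.3 CPM. Of 10 blood and serum markers 3 were listed in exosomes, at 0 to 38.9 CPM in Con and 0 in Ang libraries, and endothelial markers summed to 0 to 10.8 CPM. The 7 vesicle protein genes were listed in both compartments, at 723 to 840 CPM in exosomes and 1215 to 1282 in cells. Their part in the circRNA results was not tested.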

How the data were processed

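RNA of AC16 cells and exosomes was sequenced in 12 libraries. Per the file headers, the deposited values are counts: whole reads per gene, and whole reads over the join of each circRNA. HISAT2, StringTie and GRCh38 appear in the submitters' processing notes. The circRNA caller is not given in the sources used here, nor is the use of strand. No gene listed in a compartment had a total below 7 reads there. The members and gene lists were chosen with earlier results of these data known.

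Ends were matched to exons of GENCODE release 29, and the coordinates, counted from 1, met exon edges with no shift. Host genes lie on the circle's strand. Differences between labels in single values, and between members and shared circRNAs within libraries, were tested by exact two-sided permutation (scipy 1.17.1). Counts were tested over all features by quasi-likelihood in edgeR 4.0.16 (R 4.3.3) after TMM scaling, with Benjamini-Hochberg adjustment and a threshold of 0.05, and with DESeq2 1.42.0 as an alternative. The filter was a minimum count of 10 and total of 15 for genes, and 2 and 10 for circRNAs. Scripts were tested on simulated data. Named circles were to be those in 4 or more libraries (none was found), those in 2 or more libraries of 1 label only, hosts with the most members, the widest and narrowest, the highest in 1 library, neighbours of the rule, listed hosts and the 5 smallest p. Same-numbered libraries are not paired by the labels. Replicates differed by more than sampling noise (chi-square per degree of freedom 6.96 to 7.49 in exosomes and 23.0 to 24.6 in cells). Each library was treated as 1 sample in the tests, though this spread does not show that the libraries come from separate cultures.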

Additional observations from a re-analysis of the deposited data

How the results depend on the processing

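Of 97 alternative values, 91 were classed as the same, 4 changed direction and 2 moved. For numbers of circRNAs or hosts called, which have no direction, the same means only an equal or similar number of calls. The label differences cannot reach a p below 0.1. The differences between members and shared circRNAs cannot reach a p below 0.0625 with 1 library left out. The side of the threshold was thus fixed in advance for these differences, and keeping it says nothing about their stability. The number of circles turned to 2.18 more per 100000 gene reads in Ang (exact permutation p = 0.2). Kept to circRNAs in at least 2 exosome libraries, the span difference turned to 5009 bases and the exon-edge difference to 4.17 points, both over 6 members. Kept to circles with both ends on exon edges, the span difference turned to 1102 bases. Host genes called between labels rose from 0 to 1 with DESeq2 (STX4) and to 1 without Ang replicate 3 (SMARCC1). Leaving out 1 library at a time, the Ang minus Con difference ranged from 25.1 to 163 reads per 1000000 gene reads, from -15.5 to -3 circles and from 0.689 to 6.26 points of share, with both ends of each range set by Con replicates 1 and 2. The differences between members and shared circRNAs ranged from -1571 to -235 bases, from -32.7 to -29.6 points of exon-edge share and from 0.2 to 0.8 exons. Hosts called between exosomes and cells ranged from 155 to 182, in fits that called 34.5% to 38.1% of all genes. Deviations of same-numbered Con and Ang libraries had correlations of -0.037 to -0.0025 in exosomes. That spread may be technical, so the correlations cannot show whether the libraries were paired, and the labels state no pairing. With a replicate block the label differences were 95.9 reads per 1000000 gene reads (exact permutation p = 0.5), -10 circles (p = 0.5, exact) and 4.14 points (p = 0.75, exact). The replicate block left 0 members and 0 hosts called between labels and 168 hosts between compartments, where 33.0% of all genes were called. Depth limits what can be said of single circles, since most rest on 2 to 6 reads in 1 library and a single read may be listed as 0, and since exosome libraries held at most 745311 gene reads.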

Other observations

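In 5 members the ends lay in 2 different genes, all with both ends on exon edges and 3 to 6 reads. The pairs were SLC35E2A with SLC35E2B, CDK11A with CDK11B, CENPV with NCOR1, EIF3D with MYH9 and BCAP29 with SLC26A4, spanning 63039 to 158158 bases. The first 2 pairs are near-identical neighbouring copies, so the assignment of their reads is uncertain.

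The letters GGAG, searched on the strand of the circle in the 100 bases around the join, were present in 144 of 304 members (47.4%) and 199 of 375 shared circRNAs (53.1%). The reverse complement CTCC was present in 85 (28.0%) and 103 (27.5%). A match describes these windows and no binding.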
